A study of Sus scrofa with 2 samples.

Results

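The S100 genes, which encode a family of small calcium binding proteins, were examined in RNA-seq data from the lateral wall of the pig cochlea. Features counted as members when their gene symbol started with S100 followed by A and a number, B, G, P or Z, which gave 21 of the 27622 features in the deposited table. These 21 features carried 19 different symbols, because S100A2 and S100A11 were each listed as 2 features. S100PBP met the rule by its symbol, although it encodes a protein that binds S100P and is not an S100 protein itself. None of the features analysed here was named S100A13 or S100P.

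The lateral wall carries the stria vascularis (SV), whose intermediate cells are melanocytes. RNA was sequenced from the SV of Mitf R/r and Mitf r/r pigs, with 1 library per genotype. The r allele, from the albino line of Rongchang pigs, has a short insertion in the regulatory region of the melanocyte promoter of MITF, and the R/r pig carries it on 1 chromosome only. The labels give the age of both as postnatal day 1 whereas the text of the study gives embryonic day 85, and this difference could not be settled here. How many animals contributed to a library is not given in the sources used here. Reads recovered from the deposited values put the library totals at 15829244 for R/r and 14258672 for r/r.

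S100 proteins form dimers through EF-hand domains, change shape when they bind calcium, and then bind target proteins such as annexins and filament proteins. Some are also secreted and act on cell surface receptors, among them AGER and TLR4. Staining for S100 protein is widely used to mark melanocytes, Schwann cells and chondrocytes.

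The S100 family held a small group of abundant genes and a group with values under 1 RPKM. Values are RPKM, reads scaled to the length of the gene model and the mapped reads of the library, which allows levels of different genes to be compared. At least 1 RPKM was found in both libraries for 9 S100 features (42.9%), whereas 56.2% of all features reached this level. A further 6 S100 features were above 0 in at least 1 library but under 1 RPKM in both. The remaining 6 (28.6%) were listed at 0 in both libraries, as were 24.5% of all features. A listed 0 is not read here as lack of expression of an S100 gene, since TPI1, a gene of glycolysis used by all cells, was also listed at 0 in both. No S100 feature had a value between 0.633 and 14.3 RPKM in either library, and the 9 abundant features kept the same order of levels in both. Summed over the family, the S100 level was 7739 RPKM in R/r and 8128 RPKM in r/r. S100B and S100A1 together made up 92.2% of this sum in each library, so that the family's total level was set by this pair.

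**Figure D1:**
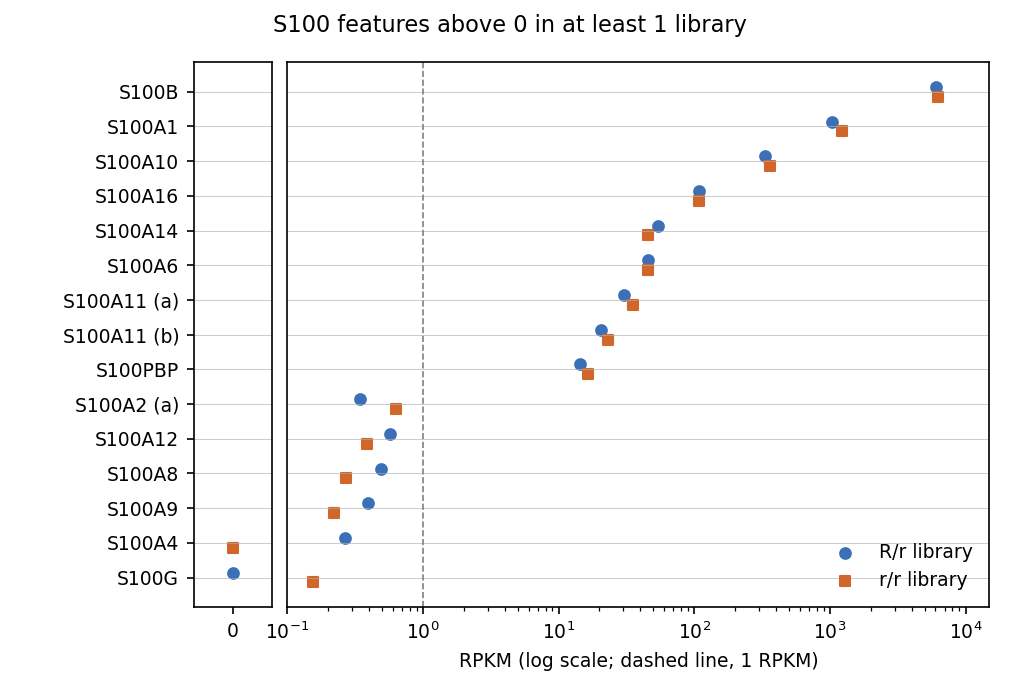
RPKM values (horizontal, log scale, with values of 0 in the panel on the left) of the 15 S100 features above 0 in at least 1 library, for the R/r library (blue circles) and the r/r library (orange squares); a and b mark features that share a symbol, the higher one being a. The 9 features from S100B to S100PBP lie at 14.3 RPKM or more in both libraries, and the other 6 lie under 1 RPKM.

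No S100 feature that could be compared differed by 2-fold between the libraries. The 9 abundant features were the ones above 0 in both libraries and at 1 RPKM or more in at least 1, the condition for a log2 ratio of r/r over R/r. Of these, 0 were at least 2-fold apart, beside 651 of all 16331 features compared (3.99%). At that share most sets of 9 features would hold none, so this 0 does not set the S100 family apart. The same holds for counts of 0 in the short gene lists below. The S100 ratios ran from -0.25 to 0.22 with a median of 0.13, and the median of all features compared was -0.02. The S100 median was 0.09 without S100PBP, 0.09 with 1 feature per symbol and 0.04 with no minimum level. Of the 9 ratios, 6 were above 0 and 3 below, and 46.7% of all features compared were above 0. The 95% intervals, exact Clopper-Pearson intervals on the recovered reads, lay wholly within 2-fold for all 9 S100 features. They excluded 0 for 5 of the 9 S100 features, beside 4204 of all features compared (25.7%). Scaled to TPM they excluded 0 for 3 of the 9, with S100B and the higher S100A11 feature lost, beside 27.0% of all features compared. They hold the error of counting S100 reads and no other error. Sequencing was paired-end, and the intervals would be too narrow if both reads of a pair were counted. Since each genotype has 1 library, S100 differences have no replicate check and describe libraries, not genotypes. In a tissue made of several cell types, fewer cells of a type and less RNA per cell cannot be told apart from these values. From electron microscopy of prenatal SVs and marker RNA, the study concluded that intermediate cells remained in r/r embryos and disappeared around birth. The age of these libraries, on which the use of that conclusion depends, could not be settled here.

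Read depth differed among the S100 features compared. The fewest reads over both libraries among the 9 were 210, for S100PBP, and the median of all features compared was 449. Among the 10773 features with at least 210 reads, 95 (0.882%) were at least 2-fold apart, beside 0 of the 9 S100 features. Their median absolute log2 ratio was 0.18, beside 0.11 for these 10773 features.

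**Figure D2:**
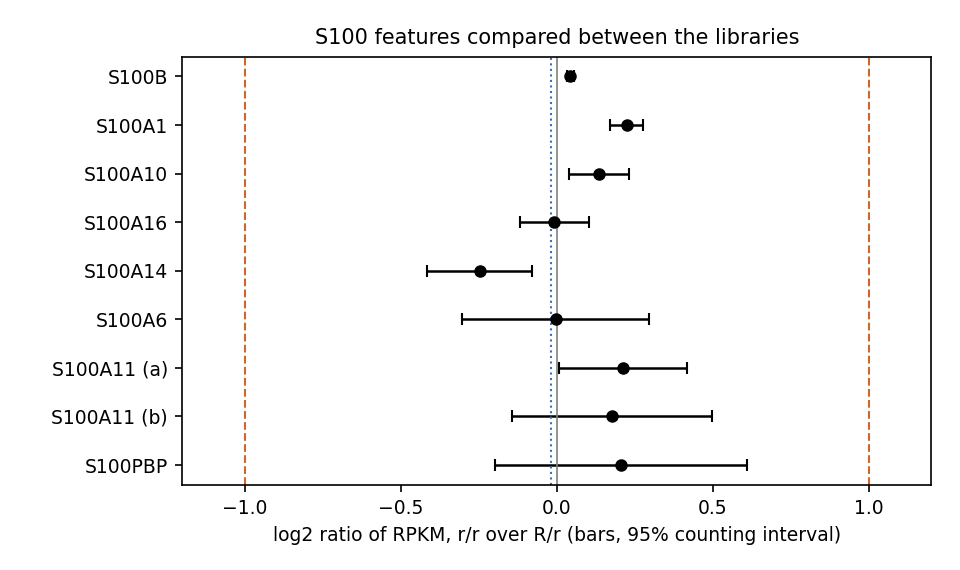
Log2 ratio of RPKM, r/r over R/r, for the 9 S100 features compared, with 95% Clopper-Pearson intervals on recovered reads (bars). Orange dashed lines mark 2-fold and the blue dotted line marks the median of all features compared, -0.02. Every interval lies inside 2-fold, and those of S100B, S100A1, S100A10 and the higher S100A11 feature lie above 0 while that of S100A14 lies below.

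S100B, a calcium sensor of glial cells, melanocytes and chondrocytes that is also secreted, was by far the most abundant member. Its level (ENSSSCG00000026140) was 6091 RPKM in R/r and 6272 RPKM in r/r. These levels placed it at rank 8 of all features in R/r and rank 7 in r/r. The log2 ratio was 0.04 (95% interval 0.03 to 0.05), a 1.03-fold difference. S100B was thus nearly level between the libraries, with a narrow interval from 254803 recovered reads. It accounted for 0.935% of all recovered reads on features in R/r and 0.963% in r/r.

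Within the family, S100B held 78.7% of the summed S100 RPKM in R/r and 77.2% in r/r. The level of S100B was 5.84 times that of S100A1 in R/r and 5.15 times in r/r. Counted as recovered reads rather than RPKM its share was higher, 92.8% and 92.3%, and its recovered length was the longest of the S100 features with reads. Recovered reads and lengths are the smallest that fit, and the true ones may be multiples for any feature. The read share and the order of lengths are therefore uncertain.

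Most genes nearest to S100B in level were mitochondrial or known for the cochlear wall and its matrix. The 5 features next above S100B in mean RPKM were MT-CO1, OTOR, MT-CO3, MT-ATP6 and MT-CO2, from 10657 RPKM for MT-CO1 to 7120 RPKM for MT-CO2 in R/r. OTOR, which encodes the secreted cochlear protein otoraplin, had 8061 RPKM in R/r and 11327 RPKM in r/r. The 5 next below were COCH, EF1ALPHA, CYTB, MT-ND4 and COL11A2. COCH, which encodes the matrix protein cochlin, had 6826 RPKM in R/r, above S100B, and 4914 RPKM in r/r, below it. The log2 ratios of these 10 features ran from -0.47 for COCH to 0.49 for OTOR, and that of S100B lay between them.

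S100B was near level beside a melanocyte list that mostly was not. Of 12 melanocyte markers, 10 could be compared, and 7 of these were at least 2-fold lower in r/r (2.20% of all features compared were) and 0 at least 2-fold higher. The median log2 ratio of the melanocyte list was -5.01, beside 0.04 for S100B. DCT, an enzyme of melanin synthesis and the most abundant of the list by mean RPKM, had 171 RPKM in R/r and 1.19 RPKM in r/r. TRPM1, a cation channel of melanocytes, had 22.7 RPKM and 0.0142 RPKM, the latter from 1 read, a log2 ratio of -10.64 (95% interval -15.95 to -8.16). SLC45A2, RAB38, PMEL, TYR and EDNRB had log2 ratios from -6.06 to -3.34. KIT, a receptor of melanocytes and other cells, was near level like S100B, with 43.6 RPKM in R/r and 44.2 RPKM in r/r (log2 ratio 0.02, 95% interval -0.06 to 0.09). MLANA was listed at 0 in r/r, and TYRP1 had 1 read in each library. Summed over the list, the level was 394 RPKM in R/r and 91.2 RPKM in r/r, most of the latter from KIT and MITF. The level of S100B was 15.5 times this sum in R/r and 68.7 times in r/r. The 7 genes at least 2-fold lower all stand in the study's own list of differing genes. By contrast, the study's table of melanocyte markers, which includes S100B, KIT, MUM1 and MCAM, was mostly near level, with KIR1.2 lower in r/r. The direction of melanocyte markers therefore depends on the list chosen.

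MITF, the gene carrying the insertion, had 51.7 RPKM in R/r and 37.8 RPKM in r/r in the most abundant of its features, which does not separate the melanocyte transcript from the others. SOX10, a factor of melanocytes and Schwann cells, had 5.20 RPKM in R/r and 4.50 RPKM in r/r in its more abundant feature, which the study names SOX10-like. The feature that the study names SOX10 had 1 read in each library. S100B and the SOX10-like feature were thus measured in both libraries although the pigment genes were near 0 in r/r.

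**Figure D3:**
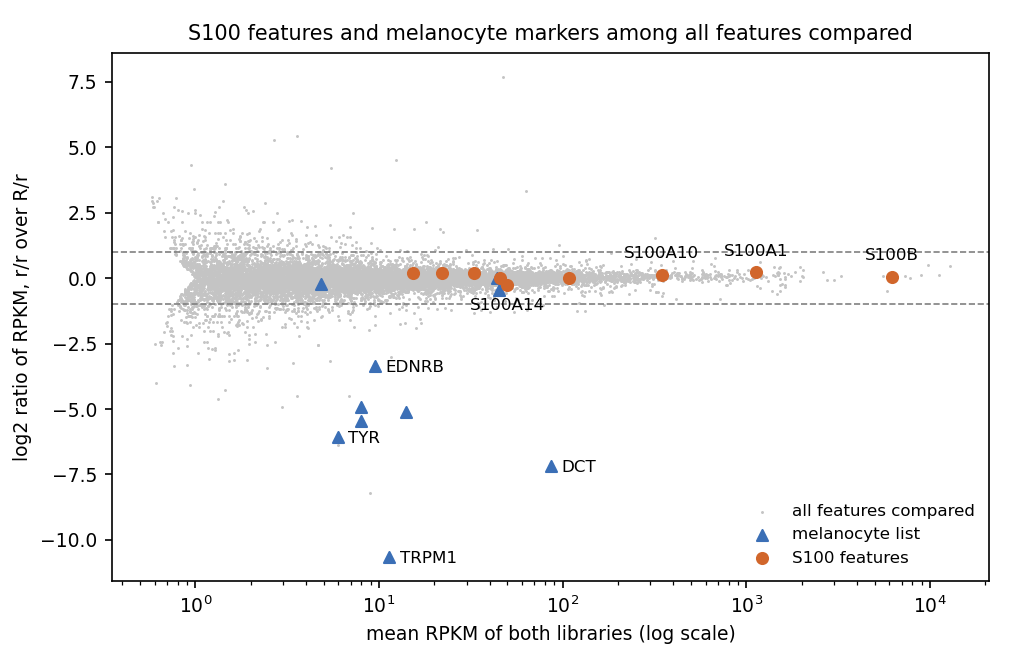
Log2 ratio of RPKM, r/r over R/r, against the mean RPKM of both libraries (log scale) for all 16331 features compared (grey), the 9 S100 features (orange circles) and the 10 melanocyte genes compared (blue triangles). Dashed lines mark 2-fold. The S100 features lie inside 2-fold at every level, whereas 7 melanocyte genes lie at or below -3.34.

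S100B is also used as a marker of Schwann cells and other glia, whose genes moved in both directions. Of 14 markers of this list, 11 were found and 8 compared, of which 4 were at least 2-fold lower and 1 at least 2-fold higher in r/r, beside 2.20% and 1.78% of all features compared. The median log2 ratio was -0.70, and the summed level of the list was 172 RPKM in R/r and 202 RPKM in r/r, a rise smaller than that of GFAP alone, so that the sum of the other genes fell. Among those lower in r/r were CADM3 (20.6 and 2.53 RPKM), LGI4 (26.01 and 7.84 RPKM) and GAP43 (7.29 and 3.19 RPKM). CDH19, with 32 reads in R/r, was listed at 0 in r/r. What part glial or melanocyte RNA has in the level of S100B was not tested.

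GFAP, the glial filament protein that S100B and S100A1 bind, moved against most of that list. Its level was 56.2 RPKM in R/r and 135.9 RPKM in r/r, a log2 ratio of 1.28 (95% interval 1.21 to 1.34). S100B stood at 108 times the level of GFAP in R/r and 46.1 times in r/r. The RNA ratio of this binding pair thus differed between the libraries, mainly through GFAP, and the proteins were not measured.

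S100A1, which binds calcium release channels and the calcium pump of the sarcoplasmic reticulum in muscle and is also made by chondrocytes, ranked next in the family. Its level (ENSSSCG00000031053) was 1043 RPKM in R/r and 1218 RPKM in r/r. With 11349 reads over both libraries the log2 ratio was 0.22 (95% interval 0.17 to 0.28), the highest of the 9 S100 features compared. Among the 294 features with at least as many reads, 86.7% had a lower ratio. In the RefSeq annotation of a later pig assembly, Sscrofa11.1, S100A1 overlaps S100A13, so that reads of S100A13 may have been counted under S100A1, and the strand used in counting is not given in the sources used here.

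The known muscle targets of S100A1 were far below it in level. RYR1 had 0.246 RPKM in R/r and 0.292 RPKM in r/r, and RYR2 had 0.907 and 0.715 RPKM. ATP2A2, the calcium pump, had 33.5 RPKM in R/r and 32.1 RPKM in r/r, a log2 ratio of -0.06 (95% interval -0.31 to 0.19). S100A1 was therefore present at over 1000 RPKM in a tissue where its ryanodine receptor targets were under 1 RPKM. Of 8 muscle markers, 6 were found and 4 compared, with 1 at least 2-fold higher (MYH6, 19.2 RPKM in R/r and 40.1 RPKM in r/r, the most abundant) and 1 at least 2-fold lower (TNNC1, 5.08 and 2.12 RPKM), beside 1.78% and 2.20% of all features compared. Their median log2 ratio was 0.05, and the list summed to 48.1 RPKM in R/r and 72.8 RPKM in r/r.

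S100A1 and S100B are both known targets of SOX9 and its partner factors in chondrocytes, and cartilage genes were highly expressed beside them. Of 11 cartilage markers, 10 were found and 8 compared, with a median log2 ratio of -0.19. Of these 8, 0 were at least 2-fold apart, beside 3.99% of all features compared. The cartilage list summed to 7049 RPKM in R/r and 6378 RPKM in r/r, below the summed S100 level in both. COL2A1, its most abundant gene by mean RPKM, had 1773 RPKM in R/r and 1474 RPKM in r/r. SOX9 itself had 83.7 RPKM in R/r and 74.8 RPKM in r/r. MATN1 and COMP, markers of mature cartilage, were under 1 RPKM in both libraries and not compared, with 1 read each in R/r and 7 and 9 reads in r/r (log2 ratios 2.96, 95% interval -0.00 to 8.45, and 3.32, 95% interval 0.47 to 8.77). The part of cartilage RNA in the levels of S100A1 and S100B was not tested.

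S100A10, or p11, does not bind calcium and works in a complex with annexin A2 that carries membrane proteins to the cell surface. Its level (ENSSSCG00000006612) was 329.9 RPKM in R/r and 362 RPKM in r/r. The log2 ratio was 0.13 (95% interval 0.04 to 0.23). ANXA2, its partner, had 565 RPKM in R/r and 576 RPKM in r/r, a log2 ratio of 0.03 (95% interval -0.01 to 0.06). Per length, S100A10 stood at 0.584 of the level of ANXA2 in R/r and 0.629 in r/r, so that both genes of the complex were abundant and near level in these libraries.

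Genes of the proteins that S100A10 carries or binds mostly had low RNA levels. Of 11 genes on the list of S100A10 channel, receptor and plasmin partners, 5 were compared, with a median log2 ratio of 0.06, 0 at least 2-fold lower and 1 at least 2-fold higher in r/r (1.78% of all features compared were). This gene was the potassium channel KCNK3, with 1.10 RPKM in R/r and 2.21 RPKM in r/r from 45 reads (log2 ratio 1.01, 95% interval 0.08 to 1.99). The interval of KCNK3 reaches nearly to no change, and scaling to TPM brought it under 2-fold. AHNAK, a large scaffold protein bound by the S100A10 complex and the most abundant of the list, had 60.6 RPKM in R/r and 55.4 RPKM in r/r. The plasminogen activator gene PLAT had 37.9 and 39.4 RPKM, whereas plasminogen itself (PLG) had 1 read in R/r and 0 in r/r. SCN10A was listed at 0 in both libraries, and HTR1B, HTR4, TRPV5 and TRPV6 were under 1 RPKM in both. The list summed to 104 RPKM in R/r and 102 RPKM in r/r.

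S100A11, a partner of annexin A1 in membrane and vesicle traffic, was listed as 2 features that both had slightly higher values in r/r. The higher feature (ENSSSCG00000006610) had 30.6 RPKM in R/r and 35.4 RPKM in r/r, a log2 ratio of 0.21 (95% interval 0.01 to 0.42). The other (ENSSSCG00000025269) had 20.6 RPKM in R/r and 23.3 RPKM in r/r, with a log2 ratio of 0.18 (95% interval -0.14 to 0.50). Reads could be split between features of the same symbol, so their separate values are uncertain. Their reads added up to 550 in R/r and 570 in r/r, a log2 ratio of 0.20 (95% interval 0.03 to 0.37). Scaling to TPM shifts all ratios by -0.04, so that this interval would then hold 0.

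The partner of S100A11 differed more than S100A11 did. ANXA1 had 523 RPKM in R/r and 302.5 RPKM in r/r, a log2 ratio of -0.79 (95% interval -0.83 to -0.75). The level of the higher S100A11 feature was 0.0584 of that of ANXA1 in R/r and 0.117 in r/r, a 2-fold shift in the RNA ratio of the pair, whose proteins were not measured. Over the 5 S100-binding annexins, 0 were at least 2-fold apart, beside 3.99% of all features compared, and the median log2 ratio was 0.03. ANXA5, ANXA6 and ANXA11 had log2 ratios of -0.10, 0.17 and 0.06. The annexins summed to 1478 RPKM in R/r and 1276 RPKM in r/r, a difference that came mainly from ANXA1.

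S100A6, or calcyclin, binds the ubiquitin ligase adaptor CACYBP and several annexins, and was level between the libraries. Its level (ENSSSCG00000021084) was 45.6 RPKM in R/r and 45.5 RPKM in r/r, a log2 ratio of 0.00 (95% interval -0.30 to 0.30), just below 0 as deposited and just above it when scaled to the median gene or the upper quartile. CACYBP had 41.7 RPKM in R/r and 44.2 RPKM in r/r, so that S100A6 stood at 1.09 and 1.03 times the level of its partner. SUGT1, another S100A6 target, had 47.0 RPKM in R/r and 51.7 RPKM in r/r. All of these had intervals that held 0.

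The wider list of cytosolic S100 targets was also near level. Of 14 genes, 12 were compared, with 1 at least 2-fold higher (GFAP), 0 at least 2-fold lower, and a median log2 ratio of 0.02. NUCB1, whose binding to an S100 protein is not certain, was the most abundant by mean RPKM, with 109.5 RPKM in R/r and 96.2 RPKM in r/r. MYH9, the myosin heavy chain that S100A4 binds, had 74.9 RPKM in R/r and 70.2 RPKM in r/r. CAPZA1, STK38 and IQGAP1, which bind S100B, had log2 ratios of -0.02, 0.12 and 0.05. The list summed to 595 RPKM in R/r and 665 RPKM in r/r, a rise smaller than that of GFAP alone. Over the 4 lists of binding partners and receptors together, 2 of 27 genes compared (7.41%) were at least 2-fold apart, beside 3.99% of all features compared, with a median log2 ratio of -0.01.

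S100A16, a widely expressed member, was level between the libraries. It had 108.2 RPKM in R/r (ENSSSCG00000006581) and 107.7 RPKM in r/r, and its log2 ratio of -0.01 (95% interval -0.12 to 0.10) turned to 0.01 when scaled to the median gene or the upper quartile. S100A14, a member of epithelial cells, was the only S100 feature with an interval wholly below 0. It had 54.0 RPKM in R/r (ENSSSCG00000006582) and 45.5 RPKM in r/r, a log2 ratio of -0.25 (95% interval -0.42 to -0.08). Among the 4671 features with at least as many reads, 7.09% had a lower ratio. S100A16 stood at 2.005 times the level of S100A14 in R/r and 2.37 times in r/r.

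Epithelial genes were measured beside S100A14. Of 9 epithelial markers, 8 were found and 5 compared, with a median log2 ratio of -0.13. Of these 5, 0 were at least 2-fold apart, beside 3.99% of all features compared. CDH1, the most abundant, had 226 RPKM in R/r and 206 RPKM in r/r. The list summed to 409.9 RPKM in R/r and 380.2 RPKM in r/r. The markers of stratified epithelium KRT5, KRT14 and TP63 had at most 2 reads in either library. The part of epithelial RNA in the level of S100A14 was not tested.

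S100PBP, the binding protein of S100P, had 14.3 RPKM in R/r (ENSSSCG00000022801) and 16.5 RPKM in r/r. Its log2 ratio was 0.21 (95% interval -0.20 to 0.61), so that no difference was detectable at this depth.

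The secreted S100 proteins of neutrophils and monocytes were close to 0 in both libraries. S100A8 and S100A9, the subunits of calprotectin, had 4 reads each in R/r and 2 reads each in r/r, or 0.489 and 0.395 RPKM in R/r and 0.271 and 0.220 RPKM in r/r. S100A12, a ligand of AGER, had 0.575 RPKM in R/r from 5 reads and 0.383 RPKM in r/r from 3 reads. Together these genes had 13 reads in R/r and 7 reads in r/r, a log2 ratio of -0.74 (95% interval -2.31 to 0.69), and no difference was detectable at this depth.

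Other neutrophil and monocyte genes were expressed beside these S100 genes. Of 12 markers, 11 were found and 7 compared, with 1 at least 2-fold lower and 0 at least 2-fold higher, beside 2.20% and 1.78% of all features compared, and a median log2 ratio of -0.42. The summed level was 147 RPKM in R/r and 90.8 RPKM in r/r, most of it from LCN2, with 105 RPKM in R/r and 51.3 RPKM in r/r. LCN2 was also the 1 gene at least 2-fold lower, and epithelial cells make it too. The neutrophil granule gene MPO had 7 reads in R/r and 2 in r/r, and CAMP was listed at 0 in both. Among other granule genes, ELANE had 15 reads in R/r and 10 in r/r, and LTF had 6 and 15, so that granule genes ranged from 0 to more reads than the calprotectin genes.

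The receptors of secreted S100 proteins were expressed at very different levels. All 5 receptor genes were compared, with 0 at least 2-fold apart, beside 3.99% of all features compared. All 5 had log2 ratios below 0 under the deposited scaling, with a median of -0.26. BSG, a receptor of S100A9 and the most abundant, had 346 RPKM in R/r and 339 RPKM in r/r, a log2 ratio of -0.03 (95% interval -0.10 to 0.04). ALCAM, a receptor of S100B, had 67.2 RPKM in R/r and 56.2 RPKM in r/r. CD36 had 14.3 RPKM in R/r and 9.16 RPKM in r/r, a log2 ratio of -0.64 (95% interval -0.92 to -0.36). AGER, the receptor best known for S100B and S100A12, had 1.34 RPKM in R/r and 1.21 RPKM in r/r, and TLR4 had 3.37 and 2.56 RPKM. AGER was therefore measured at a small fraction of the level of its ligand S100B in both libraries. The receptors summed to 433 RPKM in R/r and 408 RPKM in r/r.

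The remaining S100 genes were at the edge of detection. S100A2, a member of epithelia, had 0.342 RPKM in R/r from 3 reads and 0.633 RPKM in r/r from 5 reads in its higher feature (ENSSSCG00000006580), and its other feature (ENSSSCG00000023769) was listed at 0. S100A4, a member of fibroblasts and motile cells, had 2 reads in R/r, or 0.266 RPKM, and 0 in r/r. S100G, the calcium carrier of the gut and other transporting epithelia, had 0 reads in R/r and 1 read in r/r, or 0.154 RPKM. None of these values allows a difference to be read, since S100A4 and S100G were under the floor of 3 reads in both libraries and the interval of the S100A2 log2 ratio ran from -1.47 to 3.57. S100A3, S100A5, S100A7, S100A15A and S100Z were listed at 0 in both libraries. The S100 fused-type proteins, which join an S100 domain to the long repeats of the skin barrier, were listed at 0 in both libraries for all 4 genes found of 6 (FLG, FLG2, CRNN and RPTN).

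S100A4 was near 0 although fibroblast genes were abundant. Of 9 fibroblast and fibrocyte markers, 8 were found and compared, with 1 at least 2-fold lower (COL1A1, 89.1 RPKM in R/r and 38.5 RPKM in r/r; 2.20% of all features compared were), 0 at least 2-fold higher, and a median log2 ratio of -0.48. The list summed to 9618 RPKM in R/r and 7607 RPKM in r/r, most of it from COCH. VIM, a filament protein of mesenchymal cells, had 1939 RPKM in R/r and 2065 RPKM in r/r, while S100A4 had at most 2 reads.

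S100 genes with high values and with values under 1 RPKM lay side by side on the chromosome. RefSeq (Sscrofa11.1) places 15 S100 genes on chromosome 4, of which 14 had a feature here and 6 reached 1 RPKM in both libraries. In the order of that annotation, S100A1, S100A14 and S100A16 lie together and were expressed at 45.5 to 1218 RPKM. They are followed by S100A2, S100A3, S100A4 and S100A5, all under 1 RPKM. S100A6, at 45.6 RPKM in R/r, comes next, and after it S100A7, S100A8, S100A12 and S100A9, again under 1 RPKM. S100A11 and S100A10 lie beyond a stretch of skin barrier genes and were expressed. S100A6 thus lay between S100 genes with values of 0 in both libraries, S100A5 and S100A7.

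**Figure D4:**
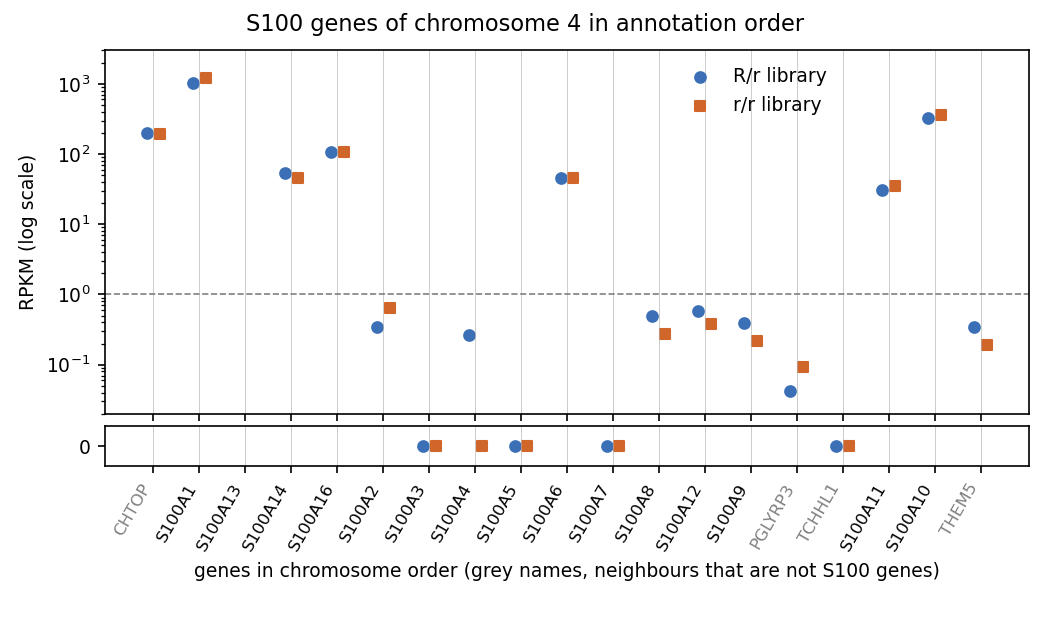
RPKM values (vertical, log scale, with values of 0 in the lower panel) of the S100 genes that RefSeq places on chromosome 4, in annotation order and not to scale, with neighbouring genes in grey; blue circles, R/r library; orange squares, r/r library. S100A13 has no feature, and where features share a symbol the higher one is drawn. S100A1, S100A14, S100A16, S100A6, S100A11 and S100A10 lie above 1 RPKM (dashed line) and the other S100 genes below it.

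Genes next to the S100 genes placed on chromosomes 2, 4, 6 and X, 10 in all with a feature, were likewise within 2-fold where they could be compared. S100B, the most abundant member, and S100A15A were not among the S100 genes whose neighbours were examined. CHTOP, next to S100A1, had 200.2 RPKM in R/r and 195.7 RPKM in r/r, a log2 ratio of -0.03 (95% interval -0.10 to 0.04). PGLYRP3, TCHHL1 and THEM5, which flank S100A9, S100A11 and S100A10, were under 1 RPKM in both libraries. S100G lies on chromosome X between CTPS2 and SYAP1, whose levels in R/r were 16.6 and 123 RPKM, far above the 0 of S100G. S100Z lies on chromosome 2 between F2RL1, with 4.09 RPKM in R/r and 2.56 RPKM in r/r, and CRHBP, with 1 read in each library. YARS and FNDC5 flank S100PBP on chromosome 6 and had log2 ratios of 0.03 and 0.29, with intervals that held 0. Of the 6 neighbours with at least 1 RPKM in at least 1 library, 0 were at least 2-fold apart, beside 3.99% of all features compared. So few neighbours would rarely hold such a gene at that share. Their median log2 ratio was 0.00.

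Other EF-hand calcium binding proteins were also set beside the S100 levels. Of 16 such genes, 11 were found and 9 compared, with a median log2 ratio of 0.01. The only gene at least 2-fold apart was PVALB, lower in r/r (2.20% of all features compared were), with 3.81 RPKM in R/r and 1.69 RPKM in r/r from 7 reads and an interval that held 0. CALB1 and CALB2, calcium buffers of hair cells and neurons, had at most 4 reads in either library. The genes found summed to 844 RPKM in R/r and 843 RPKM in r/r, below the level of the S100A1 feature alone. This sum lacks CALM2, CALM3, OCM, HPCAL1 and PDCD6, for which no feature was found, and the S100A1 feature may hold reads of S100A13.

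Markers of the other cells of the wall were set beside the S100 genes. Of 6 marginal cell markers, 5 were found and compared, with a median log2 ratio of -0.31. Of these 5, 0 were at least 2-fold apart, beside 3.99% of all features compared. The marginal cell list summed to 1586 RPKM in R/r and 1168 RPKM in r/r, with ATP1B2 the most abundant. For basal cells, 2 of 4 markers were found, CLDN11 (840.3 RPKM in R/r and 705.5 RPKM in r/r) and TJP1, with a median of -0.13 and a sum of 912 RPKM in R/r and 777 RPKM in r/r. All 8 bone markers were compared, with 2 at least 2-fold lower (DMP1, 59.99 and 27.9 RPKM, and MEPE, 3.43 and 0.388 RPKM; 2.20% of all features compared were) and a median of -0.64, and their sum was 679 RPKM in R/r and 467 RPKM in r/r, led by IBSP. Of 6 neuronal markers, only STMN2 passed 1 RPKM and was compared, with 2.60 RPKM in R/r and 1.41 RPKM in r/r (log2 ratio -0.88, 95% interval -1.63 to -0.16), and the list summed to 3.41 RPKM in R/r and 3.11 RPKM in r/r. Of the 5 neuronal genes under 1 RPKM, NEFL alone had an interval that excluded 0, with 3 reads in R/r and 35 in r/r (log2 ratio 3.70, 95% interval 2.03 to 6.04). SYT1 had 27 and 40 reads, SNAP25 3 and 2, NEFM 7 and 7, and TUBB3 3 and 3. The S100 median of 0.13 lay above the medians of all cell type lists under the minimum of 1 RPKM, where the neuronal median rests on 1 gene. With no minimum the S100 median was 0.04, and the medians of the muscle and neuronal lists then lay above it. The part of cell composition in the S100 values was not tested.

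**Figure D5:**
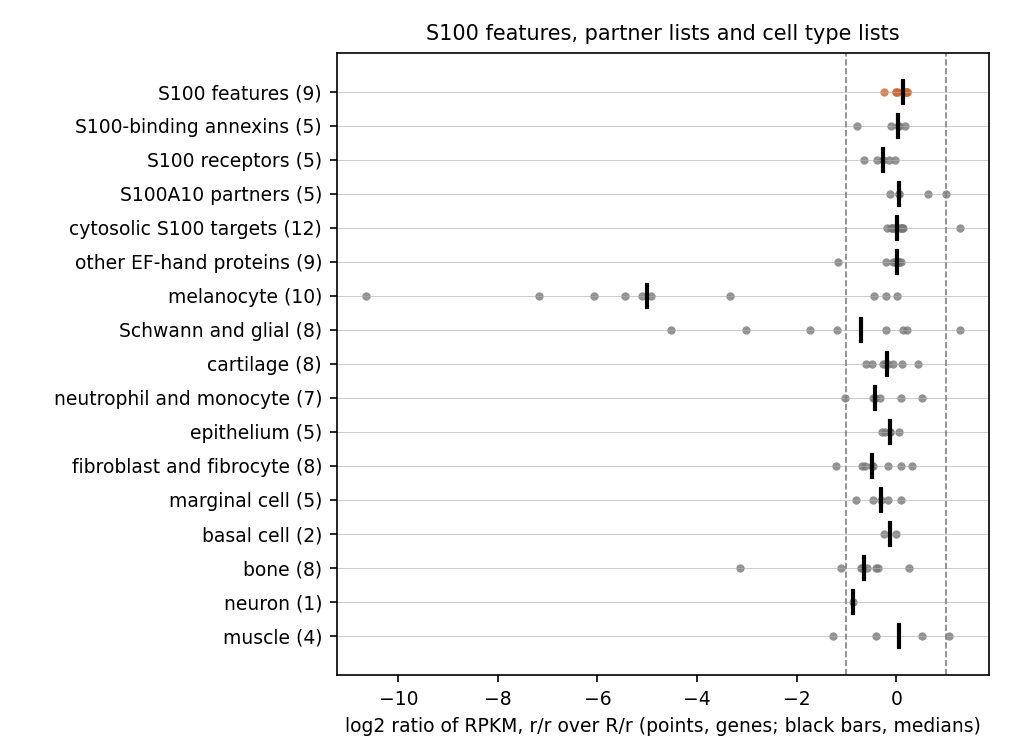
Log2 ratio of RPKM, r/r over R/r, for the S100 features (orange) and the genes of each partner and cell type list that could be compared (grey), with the number compared in parentheses and the median as a black bar. Dashed lines mark 2-fold. The S100 features lie inside 2-fold, 2 of the partner genes lie beyond it, and the melanocyte list has its median at -5.01.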

How the data were processed

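RNA of the cochlear lateral wall with its SV was sequenced by the authors in 1 library per genotype. They aligned the reads to Sscrofa10.2 with TopHat2 (2.0.7 in the submitters' processing notes) and deposited RPKM values per feature, used here as deposited. The counting program, annotation and strand setting are not given in the sources used here. Members and gene lists were chosen with earlier results of these data known.

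The RPKM values were turned back into whole reads. The commonest ratio between low values, 1.11, gave the ratio of depths, and library totals were set so that lengths came out whole. Reads were found for all 20862 features above 0. For each feature these are the smallest counts that yield both values within the printed digits. The true reads may be a common multiple, which would make intervals wider than needed. Sequencing was paired-end, and whether reads or pairs were counted is not given in the sources used here. Counting both reads of a pair would make intervals too narrow. Of 12 mitochondrial genes, 10 had a RefSeq length that was the recovered length or a whole multiple of it. The steps were tested on simulated data.

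Log2 ratios had no pseudocount and were computed for features above 0 in both libraries with at least 1 RPKM in at least 1. The threshold was 2-fold, the level of intervals 95%, and the floor 3 reads. No test across samples was possible. Where list genes had several features, the one of highest mean RPKM was used. Named genes are all S100 features, list genes at least 2-fold apart with 20 or more reads, the most abundant gene of each list, genes that bind S100 proteins, the 5 features on each side of S100B in level, and chromosome neighbours; other list genes were named after their values were seen. Some list genes are not reported here by name but are part of the list counts, medians and sums. RefSeq served only for gene order, overlap and mitochondrial lengths.

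Alternatives were pseudocounts of 0.1 and 1 RPKM, other minimums, thresholds and scalings, and other member rules. Their use on single S100 genes and on the lists was chosen after seeing the data. The 2 columns without headings, which hold the authors' own comparison for some genes, were not used. The scripts ran under Python 3.11.15 with scipy 1.17.1 for intervals, matplotlib 3.10.9 for plots, and pandas 2.3.3 and numpy 2.4.6.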

Additional observations from a re-analysis of the deposited data

How the results depend on the processing

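The count of S100 features at least 2-fold apart was 0 under all 15 alternatives, including a threshold of 1.5-fold. Only the 1.5-fold threshold, no minimum and the scalings could have raised it. The others kept or dropped features, shrank ratios or set a stricter criterion, so that their 0 adds nothing. The median of the S100 log2 ratios ran from 0.04 with no minimum to 0.15 scaled to the upper quartile over 12 alternatives. The number expressed in both libraries was 9 at thresholds of 0.5, 5 and 10 RPKM and 8 without S100PBP. The S100B log2 ratio left its narrow counting interval when scaled to the median gene (0.0605), the upper quartile (0.0621) or TPM (0.00682), since these scalings shift all ratios by 0.02, 0.02 and -0.04. The share of S100B became 92.8% in R/r and 92.3% in r/r when recovered reads replaced RPKM, a change that rests on the recovered lengths. Among 45 values of single S100 features under alternatives chosen after seeing the data, 4 changed sign, all of S100A6 or S100A16 and all under 0.02 in size. The number of S100 intervals that exclude 0, also counted after seeing the data, was 5 under median and upper quartile scaling and 3 under TPM. Of 128 list counts under such alternatives, 20 differed. The S100A10 partners fell from 1 to 0 under pseudocounts, higher minimums or TPM and rose to 2 with no minimum, which also raised cartilage from 0 to 2, neutrophil and monocyte from 1 to 4 and neuron from 0 to 1. Other EF-hand genes fell from 1 to 0 under a pseudocount of 1 RPKM or higher minimums, losing PVALB. Bone fell from 2 to 1 under higher minimums, losing MEPE. A pseudocount of 1 RPKM or a minimum of 10 RPKM took muscle from 2 to 1, losing TNNC1, and Schwann and glial from 5 to 4, losing GAP43. Pseudocounts raised melanocyte from 7 to 8. No paired analysis was possible because each genotype has 1 library. Depth limits the S100 genes under 1 RPKM, which had at most 8 reads over both libraries.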
